A study of Homo sapiens with 12 samples.

Results

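RNA sequencing was compared between the CALU lung cancer line and 3 other lung cancer lines, H1703, H1299 and CHAGO, to describe the genes that set CALU apart in each of the states sampled. CALU accounts for 3 of the 12 libraries, chosen by the line named in the labels, and the 9 libraries of the other lines formed the comparison group. Each line had 1 library of adherent parental cells, 1 of tumor-initiating cells (TICs, a subset that can start a tumor anew) and 1 of TICs in which PRKCI, the gene for protein kinase C iota, was knocked down. The series title places the lines in lung squamous cell carcinoma, a tumor class that usually carries keratins, desmosomes and the transcription factors SOX2 and TP63. The labels give the line only as CALU, with no number, and how the TICs were grown and the knockdown was made is not given in the sources used here. The 3 libraries of a line are 1 line in 3 states, so the tests below measure how far CALU stood from these 9 libraries and not from lung cancer lines at large.

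A cell line keeps much of the expression pattern of the cell that gave rise to it. HOX genes, which hold positional identity along the body axis, often stay on or off as blocks. Lines of an epithelial tumor range from cells joined by cadherins, tight junctions and desmosomes to cells that make collagen and fibronectin and carry the transcription factor SNAI2. HLA class II, the complex that shows peptides to helper T cells, is usually restricted to immune cells, and epithelial cells make it mainly after interferon gamma, through the coactivator CIITA.

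The CALU libraries held 91.8, 91.5 and 80.4 M counted reads (M, mega) in parental cells, TICs and knockdown TICs, and the 9 others held 21.2 to 83.3 M. A floor of 3 reads was therefore 0.0347 to 0.0423 counts-per-million (CPM) in CALU and 0.0367 to 0.134 CPM elsewhere. The intervals and floors given here cover counting error only. Across genes, log2 CPM correlated at 0.90 to 0.923 among the CALU libraries, at 0.737 to 0.779 with H1299, at 0.686 to 0.745 with CHAGO and at 0.695 to 0.731 with H1703. The CALU libraries thus resembled each other more than any library of another line. PRKCI stood at 262 CPM in CALU parental cells, 237 CPM in TICs and 41.5 CPM in knockdown TICs, so the knockdown library carried its label. PRKCI did not separate CALU from the other lines, with a log2 fold change of −0.23 ± 0.39 (standard error, edgeR adjusted p = 0.775).

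Of 14882 genes tested, 598 (4.02%) were called at an adjusted p of 0.05 by edgeR's quasi-likelihood test with state as a block and Benjamini-Hochberg adjustment. They divided into 361 genes higher in CALU (2.43%) and 237 lower (1.59%), and 3139 genes had an unadjusted p under 0.05. With library totals in place of TMM scaling the split was 275 higher and 287 lower. The median log2 fold change of all tested genes was −0.18 under TMM and −0.36 under library totals, and single values are to be read against that shift. The spread within the comparison group was that between 3 unlike lines, and the common dispersion of 1.22 gave a biological coefficient of variation of 1.11. With the reads of each line summed, so that CALU was 1 library against 3, edgeR called 0 genes, while 820 had an unadjusted p under 0.05. With the line as a random block, limma voom called 393 genes, 361 higher and 32 lower. Leaving out 1 of the 3 CALU libraries left 102 to 140 called genes, so the adjusted p without 1 CALU library is given beside most of the genes below. Of 98 named genes that were called, 62 were also called with the random block.

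Genes were said to stand apart where they were called and the lowest CALU library lay at least 2-fold above the highest of the 9 others, or the highest CALU library at least 2-fold below the lowest. This held for 178 genes upward (1.20%) and 168 downward (1.13%). Without the fold minimum, libraries did not overlap at 1006 genes upward (6.76%) and 576 downward (3.87%), called or not. At the edge of the 2-fold limit, C20orf3 and GOLT1B stood just inside upward with gaps of 1.01 and 1.02 on the log2 scale, and SEC23A and FUT8 just outside with 0.99 each. Downward, HOXA5 and EIF2C2 stood just inside with gaps of 1.01 and 1.02, and NHEDC2 and ZC3H18 just outside with 0.92 and 0.91. The same comparison for each other line placed 95 genes upward and 255 downward apart for H1703. It placed 63 upward and 27 downward for H1299, and 241 upward and 199 downward for CHAGO. A fit with a term for each line called 384 genes higher (2.58%) and 359 lower (2.41%) in CALU than in each of the 3 lines one by one, and 295 of the 346 genes that stood apart were among them. These comparisons share libraries, so their counts are given side by side only.

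The plot of the widest gaps in each direction shows genes of at least 20 CPM that most separated CALU. They were ranked by that gap, so their values and adjusted p are a description. Genes with no read in the other lines, here and below, passed the filter on low counts only through CALU. Their positive sign was therefore fixed beforehand. Of all 14882 tested genes, 56 had no read in the other lines. SLC43A3, a nucleobase transporter, stood at 72.3, 77.4 and 174 CPM in CALU parental cells, TICs and knockdown TICs and had no read in the 9 other libraries, at least 1236-fold higher against the floor of 3 reads per library (edgeR adjusted p = 0.0165). ACSS3, a mitochondrial short-chain acyl-CoA synthetase, stood at 28.6, 33.5 and 35.4 CPM against no read elsewhere, at least 372-fold higher (edgeR adjusted p = 0.0351). B3GALNT1, which builds the sugar chain of globoside, stood at 26.1, 22.6 and 18.4 CPM against no read, at least 256-fold higher (edgeR adjusted p = 0.0449). These genes were on in all CALU states at levels within 3-fold of each other and without a read in any other line. PLXNA4, a semaphorin receptor, stood at 38.7, 31.2 and 8.72 CPM in CALU against 1 read elsewhere, a ratio of pooled reads of 10712 with a 95% counting interval of 1922 to 423148 (edgeR adjusted p = 0.000199). GPR116, an adhesion G protein-coupled receptor of alveolar type II cells and vessels, stood at 186, 482 and 286 CPM, while the others had a median of 0 and a highest value of 1.45 CPM. Its log2 fold change was 11.74 ± 1.79 (edgeR adjusted p = 0.00636). CHI3L1, a secreted chitinase-like glycoprotein, stood at 16.2 CPM in parental cells, 4009.6 in TICs and 137 in knockdown TICs, against a highest value of 0.0734 CPM elsewhere (log2 fold change 15.58 ± 0.93, edgeR adjusted p = 4.75e-05). Of the 15 genes upward, 5 kept their call whichever of the 3 CALU libraries was left out, namely C7orf58, COL5A1, PLXNA4, CHI3L1 and COL1A2. Without 1 CALU library the adjusted p became 0.0567 to 0.0814 for SLC43A3, 0.105 to 0.133 for ACSS3, 0.139 to 0.162 for B3GALNT1 and 0.0457 to 0.0681 for GPR116.

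**Figure D1:**
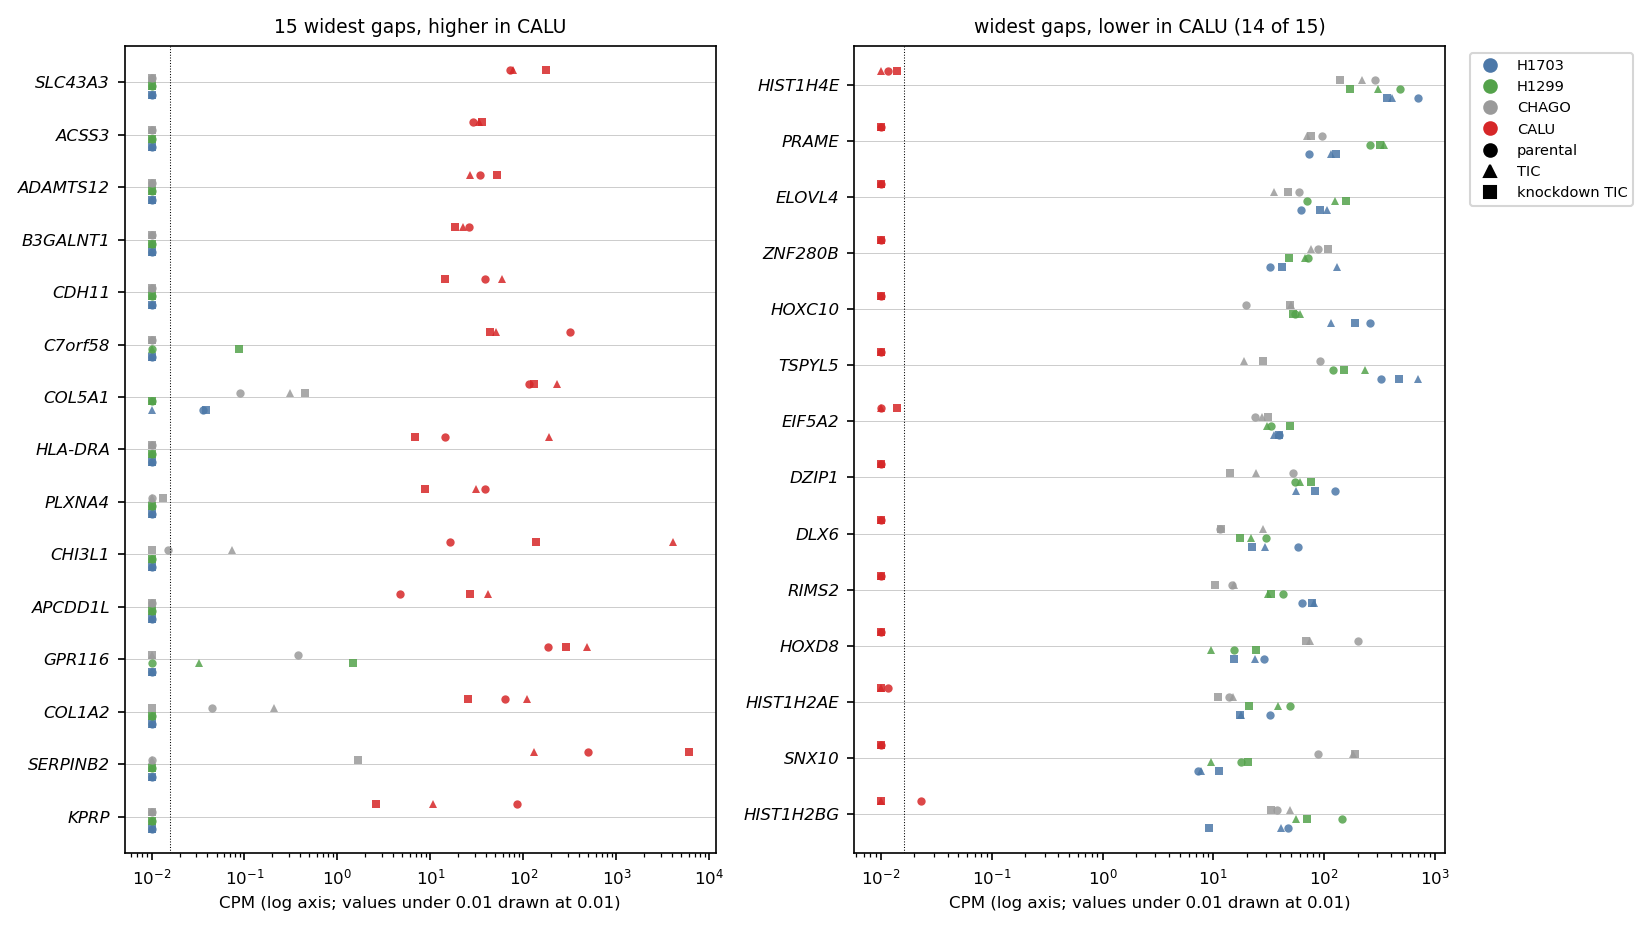
CPM on a log axis of the 15 genes with the widest gap upward (left) and of 14 of the 15 with the widest gap downward (right) in CALU, with 1 point per library, color for the line and shape for the state. The red CALU points and the points of the other lines do not overlap in any row, which the choice of genes ensures; values under 0.01 CPM are drawn at 0.01, left of the dotted line.

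A number of extracellular matrix genes were higher in CALU. Of 43 tested genes for collagens and other matrix proteins, 11 were called higher (25.6%, against 2.43% of all genes) and 0 lower. Their median log2 fold change was 3.48. Members with few reads elsewhere, such as COL1A2 and BGN, passed the filter only through CALU. Their positive sign was therefore fixed beforehand, and the list median is a description of the tested members only. COL1A1 and COL1A2, the chains of type I collagen that fibroblasts secrete in bulk, were both among them. COL1A2 stood at 63.5, 110.4 and 25.1 CPM in CALU parental cells, TICs and knockdown TICs, while the others had a median of 0 and a highest value of 0.208 CPM, a log2 fold change of 11.44 ± 1.16 (edgeR adjusted p = 0.000635). COL1A1 stood at 548, 1338 and 301 CPM against 0 to 5.3 CPM elsewhere with a median of 0.485 (8.97 ± 1.51, edgeR adjusted p = 0.00976). COL5A1, the chain of type V collagen that starts fibrils, stood at 115, 230.5 and 128 CPM against a highest value of 0.449 CPM (10.59 ± 1.22, edgeR adjusted p = 0.00144). Each of these collagen genes was highest in the CALU TIC library, and even the lowest CALU library lay far above every other line. SPARC, a matrix glycoprotein that binds collagen, stood at 988, 2869 and 720.5 CPM against a highest value of 18.6 CPM (11.58 ± 2.79, edgeR adjusted p = 0.0457). EFEMP1, the matrix protein fibulin-3, followed another order, with 180.1, 94 and 25.4 CPM in CALU and at most 1.04 CPM elsewhere (12.23 ± 1.61, edgeR adjusted p = 0.00308). COL8A1, a short-chain collagen, stood at 25.8, 13 and 20 CPM against a highest value of 0.661 CPM (11.16 ± 1.81, edgeR adjusted p = 0.00768). LAMA4, a laminin chain of vessel and muscle basement membranes, and COL6A1, COL6A2, COL6A3 and BGN complete the called members. BGN, a small proteoglycan, was scarce, at 1.38, 0.241 and 2.52 CPM against 3 reads in the 9 other libraries. SPARC, COL8A1, LAMA4 and the 3 COL6 genes were named after their values were seen. Without the CALU knockdown TIC library 2 matrix genes of 42 tested were called higher, beside 48 of all 15323 genes tested in that setting. Leaving out each CALU library in turn, the adjusted p stayed at 0.0126 to 0.0251 for COL1A2 and 0.0184 to 0.0272 for COL5A1, and became 0.0695 to 0.108 for COL1A1 and 0.0774 to 0.142 for EFEMP1. It became 0.147 to 0.22 for SPARC, 0.139 to 0.176 for COL8A1, 0.11 to 0.162 for LAMA4 and 0.0815 to 0.401 for the COL6 genes. BGN became 0.123 without the TIC library and was too scarce to be tested without either of the others.

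**Figure D2:**
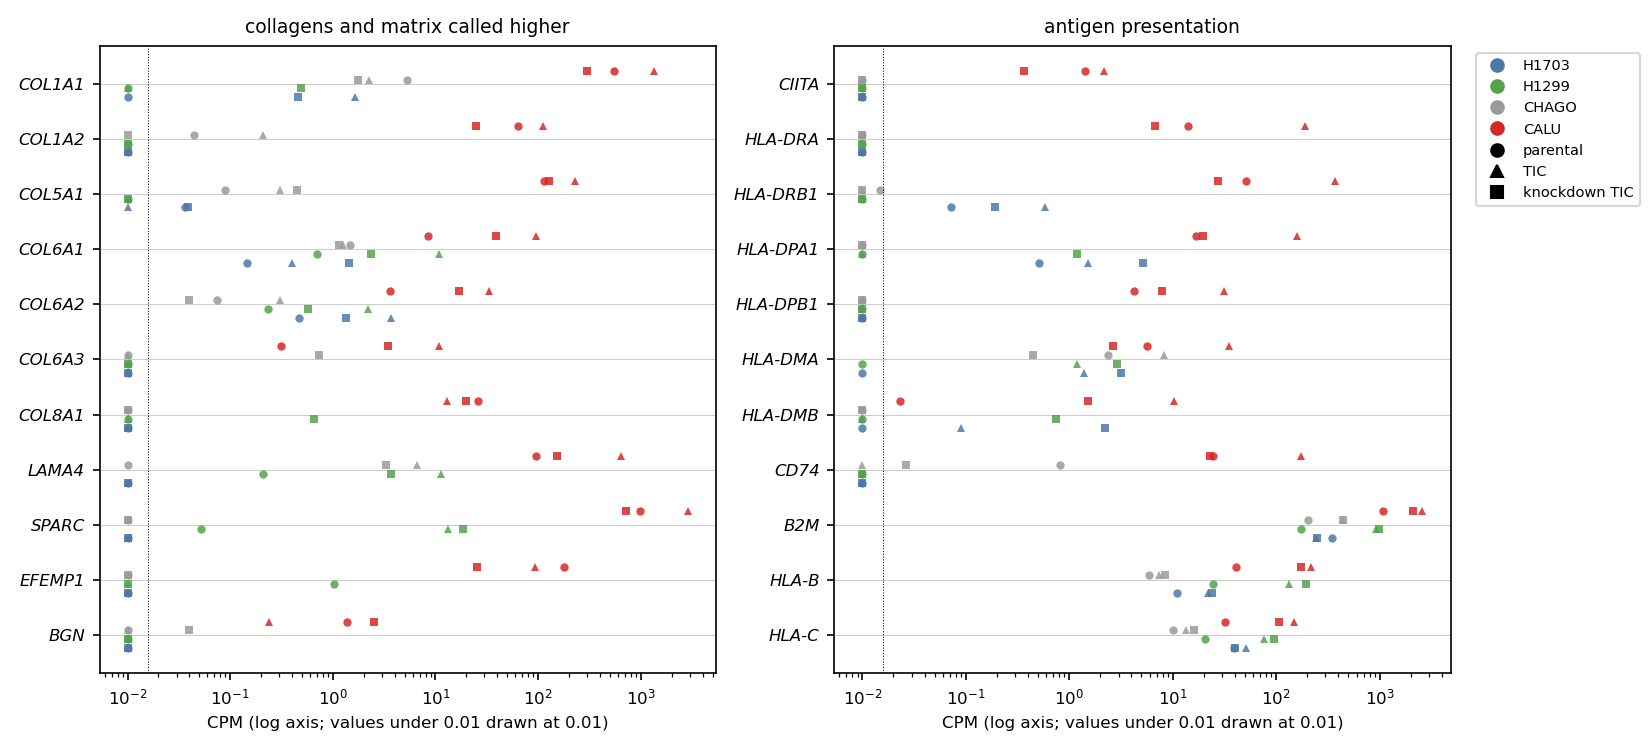
CPM on a log axis of the 11 matrix genes called higher (left) and of antigen presentation genes, called or not (right), with 1 point per library, color for the line and shape for the state. CALU points of COL1A1, COL1A2, COL5A1 and SPARC lie between 25.1 and 2869 CPM and those of the other lines at or below 18.6 CPM, while HLA-B and HLA-C overlap between lines.

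Several mesenchymal genes were higher in CALU as well. Of 23 tested mesenchymal genes, 5 were called higher (21.7%, against 2.43% of all genes) and 1 lower (4.35%, against 1.59%). The list had a median log2 fold change of 2.90. CDH11 passed the filter only through CALU, so its positive sign was fixed beforehand. FN1, which encodes fibronectin, stood at 2555 CPM in CALU parental cells, 39411 in TICs and 8575 in knockdown TICs, against 0.539 to 215 CPM elsewhere with a median of 7.3 (log2 fold change 8.38 ± 1.45, edgeR adjusted p = 0.0115). LOX, the lysyl oxidase that crosslinks collagen, stood at 1012, 1021 and 440.1 CPM against a highest value of 16.8 CPM (6.56 ± 0.73, edgeR adjusted p = 0.00107). CDH11, a cadherin of mesenchymal cells, stood at 39.1, 58.8 and 14.4 CPM and had no read elsewhere, at least 429-fold higher (edgeR adjusted p = 0.0326). SNAI2, a transcription factor that represses epithelial genes, stood at 193, 424 and 358 CPM against a highest value of 21.4 CPM (7.33 ± 1.75, edgeR adjusted p = 0.0444). CALD1, an actin-binding protein of contractile cells, was the fifth, at 211, 176 and 129 CPM against 7.2 to 66.5 CPM (3.0 ± 0.50, edgeR adjusted p = 0.0091). The list did not move as one, since TWIST1, another transcription factor of this program, had no CALU read and lay between 0.077 and 2.6 CPM elsewhere (edgeR adjusted p = 0.0488). VIM, the intermediate filament of mesenchymal cells, stood at 3469, 2076 and 1173 CPM in CALU and overlapped with 0 to 1477 CPM in the others (edgeR adjusted p = 0.69). SNAI2 and TWIST1 were named after their values were seen. LOX, without each CALU library in turn, stayed called (adjusted p 0.00876 to 0.0186), while FN1 became 0.0721 to 0.107, CDH11 0.104 to 0.151, CALD1 0.0567 to 0.116, SNAI2 0.174 to 0.283 and TWIST1 0.171 to 0.197.

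Of 14 tested markers of fibroblasts and smooth muscle, 4 were called higher in CALU (28.6%, against 2.43% of all genes), namely COL1A1, COL1A2, FAP and PDGFRB. COL1A2, FAP and PDGFRB passed the filter only through CALU, so their positive sign was fixed beforehand. FAP, a surface protease of activated fibroblasts, stood at 3.77, 94.5 and 125 CPM in CALU and had 1 read elsewhere (edgeR adjusted p = 4.84e-05, and 0.0521 without the TIC library). PDGFRB, a platelet-derived growth factor receptor, stood at 6.05, 9.37 and 2.76 CPM against a highest value of 0.441 CPM (log2 fold change 9.59 ± 1.82, edgeR adjusted p = 0.0162, and 0.205 to 0.258 without 1 CALU library). Other markers of those cells were low or overlapped. ACTA2, smooth muscle actin, stood at 3.01, 7.68 and 0.676 CPM in CALU, TAGLN at 0.0578, 0.555 and 0.0282 CPM, and THY1 at 21.8, 6.04 and 0.944 CPM against up to 33.9 CPM elsewhere. DCN, a proteoglycan that fibroblasts make in quantity, had 0, 109 and 1813 reads in the CALU libraries and 2 reads in the others, and was not tested because too few libraries passed the filter. The summed level of the list was 510 to 1596 CPM in CALU and 5.60 to 3100 CPM elsewhere. Of 10 tested endothelial markers, 1 was called higher (10%, against 2.43% of all genes). It was ROBO4, at 4.68, 5.5 and 8.88 CPM against a highest value of 0.343 CPM (edgeR adjusted p = 0.028, and 0.168 to 0.212 without 1 CALU library). None of the 7 tested leukocyte markers was called, and their summed level was 297.3 to 396.4 CPM in CALU and 12.11 to 808.8 CPM elsewhere. PTPRC, the pan-leukocyte antigen CD45, had 61 reads in the CALU parental library and none in the other CALU libraries. Fewer cells of a type and less RNA per cell cannot be told apart in such bulk libraries, and the part of other cells in these results was not tested.

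HLA class II genes were on in CALU in all states. Of 28 tested genes of antigen presentation, 5 were called higher (17.9%, against 2.43% of all genes) and 0 lower. Their median log2 fold change was 1.45. Of the 28, 3 had no read in the other lines and passed the filter only through CALU, so their positive sign was fixed beforehand. HLA-DRA, the alpha chain of all HLA-DR molecules, stood at 14.2, 189.8 and 6.76 CPM in CALU parental cells, TICs and knockdown TICs, with no read in the 9 other libraries, at least 804-fold higher (edgeR adjusted p = 0.0239). HLA-DRB1, a beta chain, stood at 50.7, 369 and 27.2 CPM against a highest value of 0.582 CPM (log2 fold change 10.38 ± 1.45, edgeR adjusted p = 0.00385). CD74, the invariant chain that guards the peptide groove, stood at 24.6, 172 and 22.9 CPM against a highest value of 0.808 CPM (11.55 ± 1.86, edgeR adjusted p = 0.00767). All 3 genes were highest in the TIC library, and lower but present in the other CALU states. HLA-DPB1 followed with 4.28, 31.4 and 7.92 CPM against no read, at least 166-fold higher, and missed the threshold (edgeR adjusted p = 0.0624). HLA-DPA1 stood at 16.6, 161 and 19.7 CPM against up to 5.12 CPM in others (edgeR adjusted p = 0.11). CIITA, the coactivator of class II genes, stood at 1.41, 2.19 and 0.366 CPM with no read elsewhere, at least 15.2-fold higher (edgeR adjusted p = 0.15). HLA-DPB1, HLA-DPA1 and CIITA were named after their values were seen, and reads of HLA genes are uncertain in origin because the genes have near copies. Without the CALU TIC library the adjusted p was 0.232 for HLA-DRA, 0.0883 for HLA-DRB1 and 0.156 for CD74, and without the knockdown TIC library it was 0.0734, 0.0329 and 0.0749.

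Because these genes were all highest in the TIC library, the 250 bases before the annotated start of 3 of them are shown, taken from RefSeq (GRCh38.p14) on the gene's strand, 5′ to 3′. Capitals mark the letters CCAAT or their reverse complement ATTGG, the core of the Y box that class II promoters are known to carry. CD74 lies at chr5:150412911-150413160 on the minus strand, HLA-DRB1 at chr6:32589849-32590098 on the minus strand and HLA-DPB1 at chr6:33075740-33075989 on the plus strand.
CD74: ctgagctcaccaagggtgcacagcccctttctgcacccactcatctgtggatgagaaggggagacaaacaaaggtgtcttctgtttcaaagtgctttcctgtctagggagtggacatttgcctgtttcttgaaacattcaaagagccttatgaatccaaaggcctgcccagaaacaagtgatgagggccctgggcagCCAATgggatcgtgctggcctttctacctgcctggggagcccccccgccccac
HLA-DRB1: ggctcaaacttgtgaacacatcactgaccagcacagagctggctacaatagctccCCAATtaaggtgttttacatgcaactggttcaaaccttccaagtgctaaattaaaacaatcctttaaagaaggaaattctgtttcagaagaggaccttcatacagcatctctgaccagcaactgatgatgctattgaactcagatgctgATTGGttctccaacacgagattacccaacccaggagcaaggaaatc
HLA-DPB1: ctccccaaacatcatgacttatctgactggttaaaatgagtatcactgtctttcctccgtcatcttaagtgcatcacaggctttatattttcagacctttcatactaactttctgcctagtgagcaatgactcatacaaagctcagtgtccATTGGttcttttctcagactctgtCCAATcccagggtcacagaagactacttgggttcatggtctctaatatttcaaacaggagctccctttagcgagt
CD74 held 1 match, starting 53 bases before the start. HLA-DRB1 held 2, at 195 and 46 bases before it, and HLA-DPB1 held 2, at 99 and 75 bases. Of 27305 promoters in the table, 33.0% held at least 1 match on either strand in a window of this length, so a match is a description of the sequence.

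Other parts of the presentation pathway differed less. ERAP2, which trims peptides in the endoplasmic reticulum, stood at 278, 478 and 507 CPM in CALU against 1.84 to 30.6 CPM elsewhere (log2 fold change 4.93 ± 0.68, edgeR adjusted p = 0.00344). It stayed called without any 1 CALU library (0.0247 to 0.0439). B2M, the light chain of class I molecules, stood at 1069.5, 2599 and 2124 CPM against 175 to 981 CPM (2.12 ± 0.42, edgeR adjusted p = 0.02, and 0.12 to 0.162 without 1 CALU library). The class I heavy chains HLA-B and HLA-C overlapped between lines, with edgeR adjusted p of 0.321 and 0.306, which were named after their values were seen. Of 41 interferon-stimulated genes, 1 was called higher (2.44%, close to the 2.43% of all genes), MX2, an inhibitor of viral entry to the nucleus, at 4.96, 7.45 and 7.22 CPM against up to 2.19 CPM (edgeR adjusted p = 0.0208, and 0.19 to 0.3 without 1 CALU library).

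Some inflammatory mediators and secreted proteases were higher in CALU, to a degree that varied widely between its libraries. Of 21 tested cytokine and chemokine genes, 3 were called higher (14.3%, against 2.43% of all genes) and 0 lower. The median log2 fold change over the list was 4.74. CXCL1 and CXCL3 had reads in too few other libraries and passed the filter only through CALU. Their positive sign was therefore fixed beforehand, and the list median is a description of the tested members only. The summed level of the list was 92.51 to 14890 CPM in CALU and 14.61 to 270.2 CPM elsewhere. IL1B, the inflammatory cytokine interleukin 1 beta, stood at 9.34, 213 and 1790.2 CPM in CALU parental cells, TICs and knockdown TICs, against a highest value of 0.299 CPM (log2 fold change 13.14 ± 1.58, edgeR adjusted p = 0.00188). CXCL1, a neutrophil attractant, stood at 21.4, 52.5 and 3471 CPM against a highest value of 1.19 CPM (12.04 ± 2.0, edgeR adjusted p = 0.0091). CXCL3, a related chemokine, stood at 0.428, 2.76 and 109 CPM against 1 read elsewhere (edgeR adjusted p = 0.00271). The knockdown TIC library was the highest of the 3 for each of these genes. Without it the adjusted p became 0.0494 for IL1B, 0.17 for CXCL1 and 0.172 for CXCL3. In that setting 1 of 21 members was still called higher, beside 48 of all 15323 tested genes. Without the TIC library it was 0.0704, 0.166 and 0.0772. IL8, IL6 and CCL20, named after their values were seen, were also highest there, at 6541, 498 and 592 CPM, and missed the threshold (edgeR adjusted p 0.0805, 0.807 and 0.194). Several cytokine genes had reads in too few libraries to pass the filter and were not tested. CSF3, a granulocyte growth factor, had 6, 1 and 14359 reads in CALU, IL24 had 11, 0 and 5573, and IL33 had 0, 605 and 12889, each with no read in the 9 others.

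Of 37 tested proteases and protease inhibitors, 7 were called higher (18.9%, against 2.43% of all genes) and 0 lower. Over the tested members the median log2 fold change was 2.24. SERPINB2 and MMP3 had reads in too few other libraries and passed the filter only through CALU, so their positive sign was fixed beforehand. SERPINB2, an inhibitor of plasminogen activators, stood at 495, 131 and 5997 CPM against a highest value of 1.66 CPM (14.72 ± 1.36, edgeR adjusted p = 0.000391). MMP3, the matrix protease stromelysin 1, stood at 1.63, 1 and 417 CPM against at most 0.308 CPM (11.24 ± 1.01, edgeR adjusted p = 0.000357). MMP1, a collagenase named after its values were seen, stood at 259, 973 and 17832 CPM against at most 50.8 CPM (8.33 ± 1.86, edgeR adjusted p = 0.0337). The knockdown TIC library stood above the other CALU libraries for all 3 genes. DPP4, a surface dipeptidase, was instead highest in the TIC library, at 46.4, 361 and 176 CPM against at most 2.25 CPM (8.75 ± 1.57, edgeR adjusted p = 0.0133). PLAT, tissue plasminogen activator, stood at 28.3, 42.2 and 40.4 CPM against at most 5.16 CPM (4.39 ± 0.94, edgeR adjusted p = 0.027). Without the knockdown TIC library the adjusted p became 0.11 for SERPINB2 and 0.275 for MMP3. In that setting 1 of 41 members tested was called higher, beside 48 of all 15323 tested genes. MMP1 became 0.137 to 0.216 without 1 CALU library. For DPP4 it was 0.0638 to 0.141 and for PLAT 0.0927 to 0.247 without 1 CALU library.

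**Figure D3:**
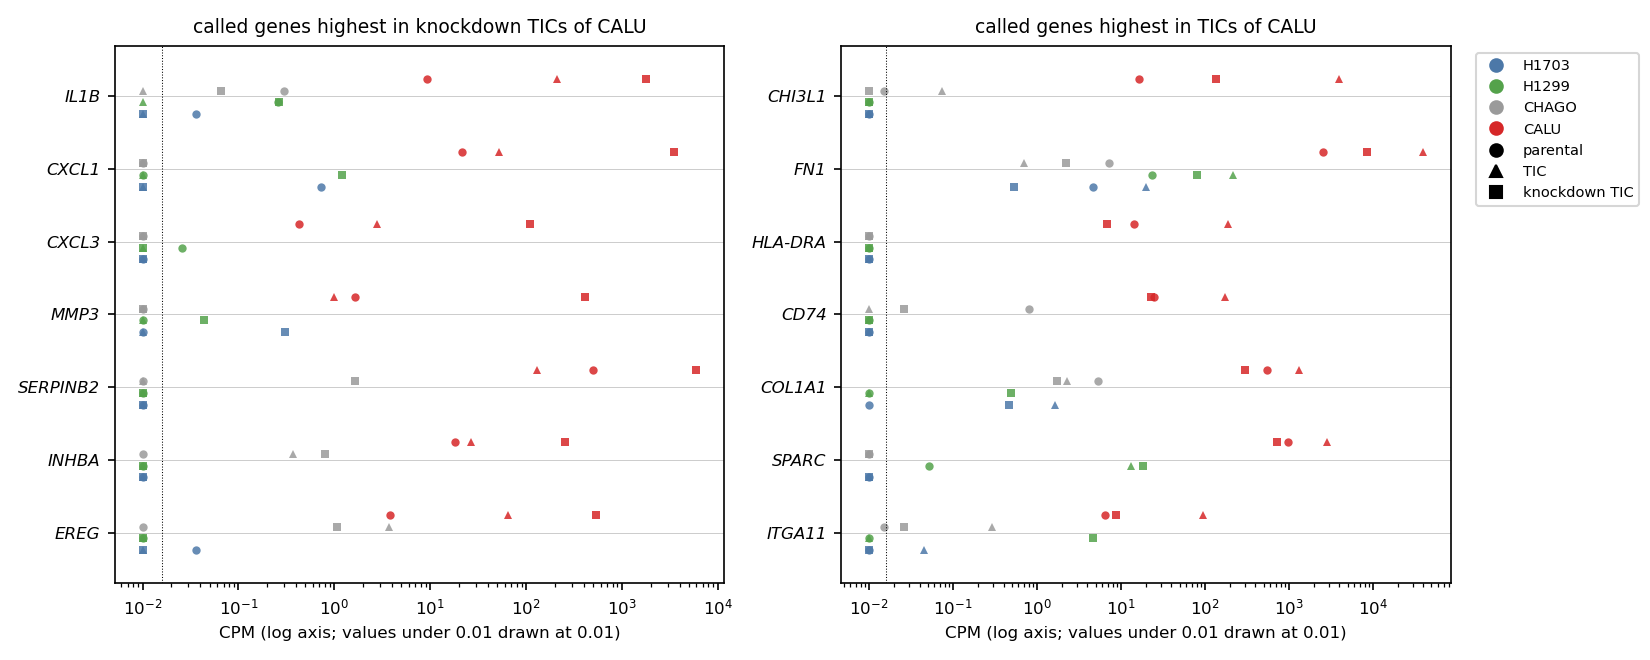
CPM on a log axis of called genes that were highest in knockdown TICs of CALU (left) and in TICs of CALU (right), chosen for that order, with 1 point per library, color for the line and shape for the state. CALU points of one gene spread widely, as for CXCL1 from 21.4 to 3471 CPM and CHI3L1 from 16.2 to 4009.6 CPM, and stay right of the points of the other lines.

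Many of the genes that stood apart upward varied across the CALU states. Among the 178, the highest CALU library was the parental one for 44, the TIC one for 73 and the knockdown TIC one for 61. The 3 CALU libraries lay within 2-fold of each other for 54 genes and spread over more than 4-fold for 68, with a median range of 1.59 on the log2 scale. The same counts were not made over all tested genes, so they are a description of these 178 only. Whether the step between states differed in CALU from the step in the other lines was tested with an interaction term. This fit had no term for each line, so level differences among the other lines entered its error. With that error and 1 CALU library per state, an absence of calls does not show that the steps were alike. For TICs against parental cells edgeR called 0 genes (0%), with 147 at an unadjusted p under 0.05 and 3 called by DESeq2. For knockdown TICs against TICs it called 0 (0%), with 125 at an unadjusted p under 0.05 and 45 called by DESeq2. With 1 CALU library per state, the orders between states have no replicate behind them. Of 46 tested WNT, TGF-beta and BMP genes, 4 were called higher (8.7%, against 2.43% of all genes) and 1 lower (2.17%, against 1.59%). The lower one was WNT10B, with no CALU read against 0.0895 to 28.4 CPM elsewhere (edgeR adjusted p = 0.0247, and 0.103 to 0.124 without 1 CALU library). INHBA, the inhibin beta A subunit of activin, stood at 18.3, 27 and 258 CPM against at most 0.806 CPM elsewhere (edgeR adjusted p = 0.00663, and 0.0964 and 0.107 without the parental or the knockdown TIC library). BMP2, a bone morphogenetic protein, stood at 6.3, 226 and 537 CPM against at most 8.98 CPM (edgeR adjusted p = 0.0334, and 0.0788 to 0.249 without 1 CALU library). BMP4 was also higher in CALU but had the reverse order between states. It stood at 54.8, 11.6 and 4.17 CPM against at most 0.701 CPM (edgeR adjusted p = 0.0345, and 0.167 to 0.245 without 1 CALU library), and was named after its values were seen.

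Most of the genes that stood apart downward were close to silent in CALU. Of the 168, 85 had no read in any CALU library. Among the 15 widest gaps, 14 stayed called whichever CALU library was left out, and 9 with the line as a random block, which kept all 15 of the widest gaps upward. PRAME, a cancer-testis antigen, had no CALU read and stood between 70.3 and 347 CPM elsewhere, at least 4381-fold lower in CALU against a floor of 3 reads per library (edgeR adjusted p = 0.000883, and 0.00647 to 0.00847 without 1 CALU library). EIF5A2, a translation factor gene of chromosome 3q26, had 1 CALU read, in the knockdown TIC library, and stood between 23.8 and 48.9 CPM elsewhere (edgeR adjusted p = 0.000132). ELOVL4, an enzyme that makes very long fatty acids, had none and stood between 35.6 and 158 CPM, at least 2224-fold lower (edgeR adjusted p = 0.000298). DZIP1, a protein of the base of the primary cilium, had none and stood between 14.1 and 125 CPM, at least 1610.0-fold lower (edgeR adjusted p = 0.000671). TSPYL5, a nucleosome assembly family member, had none against 19 to 697 CPM, at least 6298-fold lower (edgeR adjusted p = 0.00766). SNX10, an endosomal sorting protein, had none against 7.31 to 191 CPM elsewhere (edgeR adjusted p = 0.0231, and 0.0941 to 0.12 without 1 CALU library). The histone genes HIST1H4E, HIST1H2AE and HIST1H2BG had 2, 1 and 2 CALU reads against 118078, 8289 and 20429 reads elsewhere, and their reads are uncertain in origin because histone genes have near copies. With the line as a random block the limma adjusted p became 0.326 for TSPYL5, 0.167 for SNX10, 0.0675 for HIST1H2BG and 0.0514 for DZIP1.

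HOX genes made up the largest called share of the 33 lists in the lower direction. Of 32 tested, 9 were called lower (28.1%, against 1.59% of all genes) and 0 higher, and 29 had a negative fold change. No CALU read was found for 21 of the 32, and for 823 of all 14882 tested genes. HOX genes without CALU reads passed the filter only through the other lines. Their negative sign, and with it that of the list median, was therefore fixed beforehand. The median log2 fold change was −10.66, or −6.77 with the genes without CALU reads set at their bound. The clusters differed. In the HOXA cluster 9 of 10 tested genes had no CALU read and 4 were called, in HOXC 5 of 6 had none and 3 were called, and in HOXD 5 of 7 had none and 2 were called. In the HOXB cluster 2 of 9 had no CALU read, 0 were called, and 4 had a CALU mean above 1 CPM. HOXC10 had no CALU read against 19.9 to 261 CPM elsewhere, at least 2510.0-fold lower (edgeR adjusted p = 0.00264). HOXD8 had none against 9.59 to 201 CPM, at least 1359-fold lower (edgeR adjusted p = 0.00636). HOXA4 had none against 1.95 to 32.9 CPM, at least 239-fold lower (edgeR adjusted p = 0.0033). These 3 genes were on in all 9 other libraries and kept their calls without any 1 CALU library (adjusted p 0.0154 to 0.0362). HOXB5, named after its values were seen, stood at 26.3, 24.9 and 9.44 CPM in CALU, inside the range of 0 to 29.9 CPM elsewhere (edgeR adjusted p = 0.324). With the line as a random block 2 of the 32 HOX genes were called lower, beside 32 of all 14882 tested genes. The limma adjusted p became 0.0756 for HOXC10 and 0.106 for HOXD8.

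**Figure D4:**
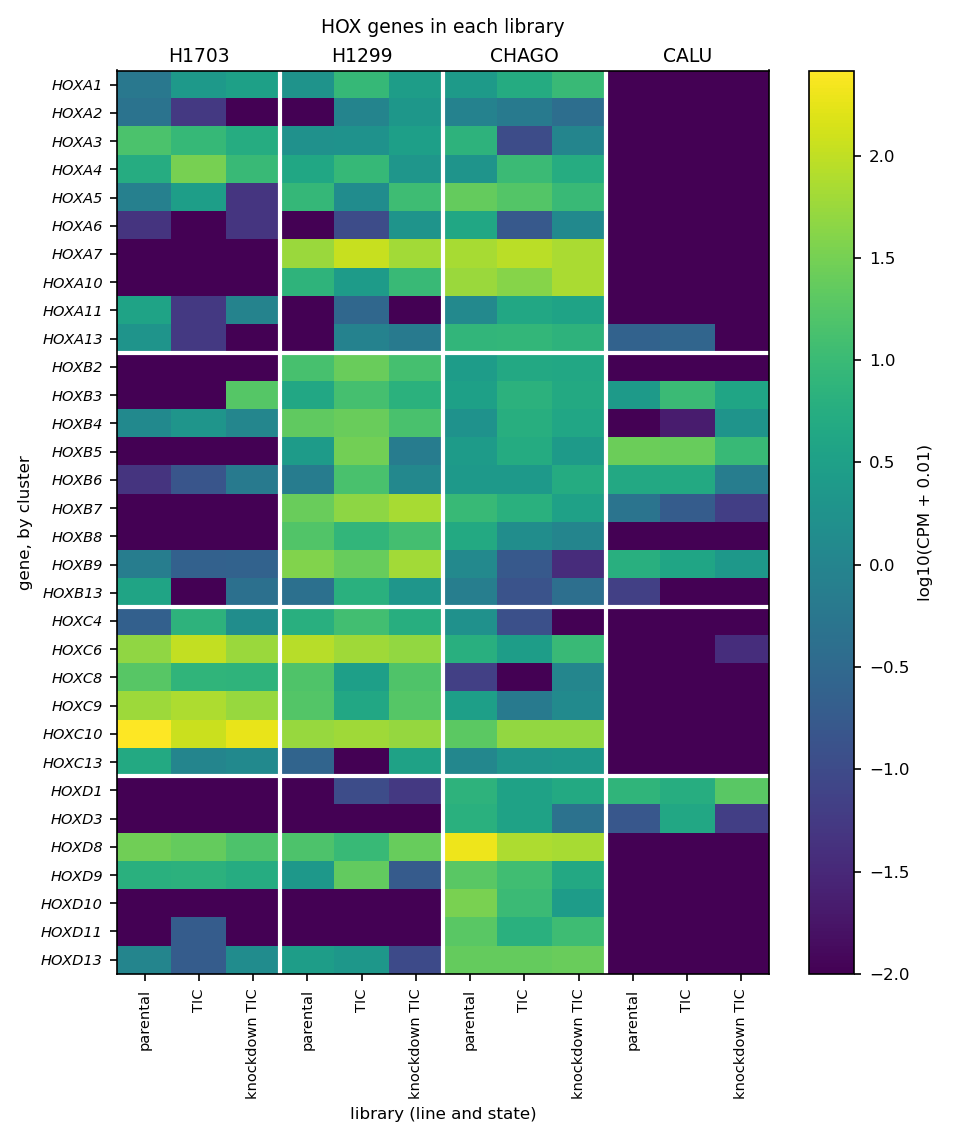
Heat map of log10(CPM + 0.01) for the 32 tested HOX genes (rows, by cluster) in the 12 libraries (columns, by line and state). The 3 CALU columns are dark throughout HOXA and HOXC except HOXA13 and HOXC6 at low levels, and hold signal at several genes, among them HOXB5, HOXB3, HOXB6, HOXB9, HOXD1 and HOXD3.

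Other developmental transcription factors followed in part. Of 63 other homeobox and lineage factors, 8 were called lower (12.7%, against 1.59% of all genes) and 0 higher. Their median log2 fold change was −2.03, or −1.74 at the bounds. DLX6 had no CALU read against 11.5 to 58.3 CPM elsewhere, at least 678-fold lower (edgeR adjusted p = 0.000453), and DLX1 none against 2.25 to 26.3 CPM, at least 245-fold lower (edgeR adjusted p = 0.00418). Both are homeobox genes of forebrain and jaw patterning. RUNX3, a factor of the Runt family, had none against 2.77 to 20.7 CPM, at least 352-fold lower (edgeR adjusted p = 0.00183), and FOXD1, a forkhead factor of kidney stroma, none against 2.23 to 43.2 CPM, at least 379-fold lower (edgeR adjusted p = 0.00539). These 4 factors kept their calls without any 1 CALU library. With the line as a random block 2 of the 63 were called lower and 1 higher, beside 32 lower and 361 higher of all 14882 tested genes. The limma adjusted p became 0.0721 for DLX1 and 0.0671 for FOXD1. Of 104 KRAB zinc finger genes of chromosome 19, which encode repressors of transposons, 9 were called lower (8.65%, against 1.59% of all genes) and 0 higher. Their median log2 fold change was −0.67 and became −0.85 under library totals. ZNF256 had no CALU read against 5.43 to 20.5 CPM, at least 364-fold lower (edgeR adjusted p = 0.000635), and ZNF415 had 2 CALU reads against 7.28 to 27.7 CPM (edgeR adjusted p = 0.00171). With the line as a random block 2 of the 104 were called lower, beside 32 of all 14882 tested genes. Of 18 tested cancer-testis antigens, which are silent in most adult tissues and on in many tumors, 13 had no CALU read. Among all 14882 tested genes, 823 had none. An antigen without CALU reads passed the filter only through the other lines, so its negative sign was fixed beforehand. The negative fold change of all 18 and the bounded median of −8.80 are therefore a description of the tested members only. PRAME was the 1 member called (5.56% lower, against 1.59% of all genes). MAGEA4, named after its values were seen, had no CALU read and 0 to 665 CPM elsewhere (edgeR adjusted p = 0.154). Reads of MAGE and KRAB zinc finger genes are uncertain in origin because these families hold near copies.

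Lineage markers gave a mixed picture in CALU. No gene of the squamous list (15 tested) was called in either direction. SOX2 had no CALU read and stood at 0 to 38.7 CPM elsewhere (edgeR adjusted p = 0.0521), and TP63 stood at 3.05, 45.1 and 2.73 CPM against 0 to 43.9 CPM (edgeR adjusted p = 0.892). The CALU TIC library thus held the highest TP63 level of the 12 libraries. Every CALU library lay above the 0 to 0.224 CPM of H1703 and H1299, while CHAGO held 4.25 to 43.9 CPM. With a term for each line TP63 was called higher in CALU (log2 fold change 5.05, edgeR adjusted p = 0.00402). It was called in 2 of the 19 alternative settings that tested it. NKX2-1, the lung lineage factor of alveolar cells, stood at 5.39, 26.7 and 9.84 CPM in CALU against at most 0.225 CPM elsewhere (log2 fold change 9.28 ± 1.44, edgeR adjusted p = 0.0065, and 0.109 and 0.122 without the TIC or the knockdown TIC library). LAMP3, a lysosomal protein of alveolar type II cells, went the other way, at 0.289, 1.84 and 0.113 CPM against 7.01 to 189.8 CPM (−5.93 ± 1.04, edgeR adjusted p = 0.0115, and 0.0576 to 0.0858 without 1 CALU library). Of 30 epithelial junction genes, 1 was called lower (3.33%, against 1.59% of all genes), LSR of tricellular junctions (edgeR adjusted p = 0.0295, and 0.14 to 0.164 without 1 CALU library). In the main fit 25 had a negative fold change and the median was −2.93. That lean depended on the fit. On the authors' mode-normalized values 18 were negative with a median of −0.204, and with the random block 17 with a median of −0.688. The summed level of the list was 616 to 1301 CPM in CALU, inside the 48.31 to 5428 CPM of the other lines. CDH1, the epithelial cadherin, stood at 4.36, 0.265 and 0 CPM in CALU (edgeR adjusted p = 0.394), and EPCAM at 24, 12.6 and 1.18 CPM (edgeR adjusted p = 0.594). CHAGO carried both at high levels, 826 to 1105 CPM for CDH1 and 431 to 666 CPM for EPCAM, and neither separated CALU from all 3 other lines. H1703 and H1299 held 0 to 0.708 CPM of EPCAM, below every CALU library. Without CHAGO, EPCAM was called higher in CALU (log2 fold change 8.99, edgeR adjusted p = 0.0369). Of 20 keratin and desmosome genes, 1 was called lower (5%, against 1.59% of all genes). It was DSP, the desmosome plaque protein, at 17.8, 13.7 and 6.57 CPM against 66.3 to 1467 CPM (−5.82 ± 1.32, edgeR adjusted p = 0.0357, and 0.141 to 0.203 without 1 CALU library). SCG5, a chaperone of the neuroendocrine secretory pathway, stood at 77.2, 226 and 438 CPM against at most 5.39 CPM (8.52 ± 1.11, edgeR adjusted p = 0.0029), and the neurofilament genes NEFH and INA were lower in CALU (edgeR adjusted p 0.0208 and 0.0409). SCG5 stayed called without any 1 CALU library (0.0275 to 0.0305), while NEFH became 0.0869 to 0.141 and INA 0.144 to 0.17.

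Receptors and growth factors were called in the higher direction only. Of 44 receptor tyrosine kinases, 4 were called (9.09%, against 2.43% of all genes). Their median log2 fold change was 0.06 and became −0.10 under library totals. EPHB2, an ephrin receptor, stood at 42.5, 52.1 and 113 CPM in CALU against 2.04 to 10.7 CPM (4.15 ± 0.49, edgeR adjusted p = 0.00162, and 0.00647 to 0.0302 without 1 CALU library). EPHB1 stood at 10.7, 19.3 and 9.84 CPM against at most 1.48 CPM (edgeR adjusted p = 0.0131). ROS1, a kinase known from fusions in lung cancer, stood at 0.266, 42.4 and 47.7 CPM against no read, at least 345-fold higher for the CALU mean (edgeR adjusted p = 0.0442). That bound does not hold for the parental library, which had 23 reads. Of 38 growth factors for these receptors, 3 were called (7.89%, against 2.43% of all genes). GAS6, the ligand of the AXL family, stood at 18.2, 13 and 14.1 CPM against at most 2.91 CPM (5.73 ± 1.02, edgeR adjusted p = 0.0128), and EREG, an EGF receptor ligand, at 3.81, 65.5 and 533 CPM against at most 3.73 CPM (8.88 ± 1.86, edgeR adjusted p = 0.0255). Of 36 integrins and adhesion receptors, 4 were called higher (11.1%, against 2.43% of all genes). ITGA5, the fibronectin receptor chain, stood at 32, 239 and 192 CPM against 1.26 to 27.5 CPM (3.72 ± 0.76, edgeR adjusted p = 0.022), and ITGA2, a collagen receptor chain, at 264, 1058 and 2669.9 CPM against 1.81 to 208 CPM (4.01 ± 0.83, edgeR adjusted p = 0.024). Of the genes in this paragraph EPHB2 kept its call without any 1 CALU library. Without 1 CALU library the adjusted p reached 0.247 for EPHB1, 0.132 for GAS6, 0.272 for EREG, 0.236 for ITGA5 and 0.189 for ITGA2. ROS1 became 0.0927 without the parental library and did not pass the filter without either of the others.

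Genes tied to lung cancer by mutation or copy number were called singly. Of 31 tumor suppressors, 2 were called higher and 2 lower (6.45% each, against 2.43% and 1.59% of all genes). NF2, the merlin gene, was lower at 3.85, 6.62 and 9.33 CPM against 14.1 to 39.7 CPM (−2.10 ± 0.48, edgeR adjusted p = 0.0372). CYLD, a deubiquitinase that restrains NF-kB, was higher at 99.4, 112 and 278 CPM against 22 to 67.7 CPM (1.85 ± 0.32, edgeR adjusted p = 0.0115), as was FAT1, a giant cadherin, at 732, 792 and 1027 CPM against 149 to 473 CPM (1.54 ± 0.32, edgeR adjusted p = 0.0221). Without 1 CALU library the adjusted p reached 0.207 for NF2, 0.151 for CYLD and 0.21 for FAT1. CDKN2A stood at 6.24, 17 and 3.95 CPM and was not called (edgeR adjusted p = 0.864). Of 47 genes of the 3q26-q29 amplicon, 2 were called higher (4.26%), FNDC3B and DLG1, and 2 lower (4.26%), EIF5A2 and LAMP3. FNDC3B became 0.178 and DLG1 0.197 without the knockdown TIC library. Of 33 NRF2 target and aldo-keto reductase genes, 6 were called higher (18.2%), among them AKR1B1, aldose reductase, at 106, 245 and 403 CPM against 11.6 to 56 CPM (2.94 ± 0.46, edgeR adjusted p = 0.00649), and FTL, ferritin light chain (1.70 ± 0.30, edgeR adjusted p = 0.0128). GCLC, which starts glutathione synthesis and was named after its values were seen, was lower, at 1.33, 12.4 and 2.11 CPM against 28.1 to 132 CPM (−4.09 ± 0.86, edgeR adjusted p = 0.0249). Without 1 CALU library AKR1B1 reached 0.0933, FTL 0.151 and GCLC 0.173.

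Hedgehog and atypical protein kinase C genes, the subject of the series title, did not separate CALU, with 0 of 21 tested called in either direction. HHAT, which attaches palmitate to Hedgehog ligands, stood at 4.76, 6.56 and 3.5 CPM in CALU against 1.01 to 70.7 CPM (edgeR adjusted p = 0.638). GLI1, which transduces the signal in the nucleus, stood at 1.58 CPM in the CALU TIC library and at 0 in the other CALU libraries (edgeR adjusted p = 0.596), and SHH had no read in any of the 12 libraries. Cell cycle genes (31 tested) and imprinted genes (17 tested) also gave 0 calls in either direction. The plot of shares by list sets 32 of the 33 lists against the share of all genes.

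**Figure D5:**
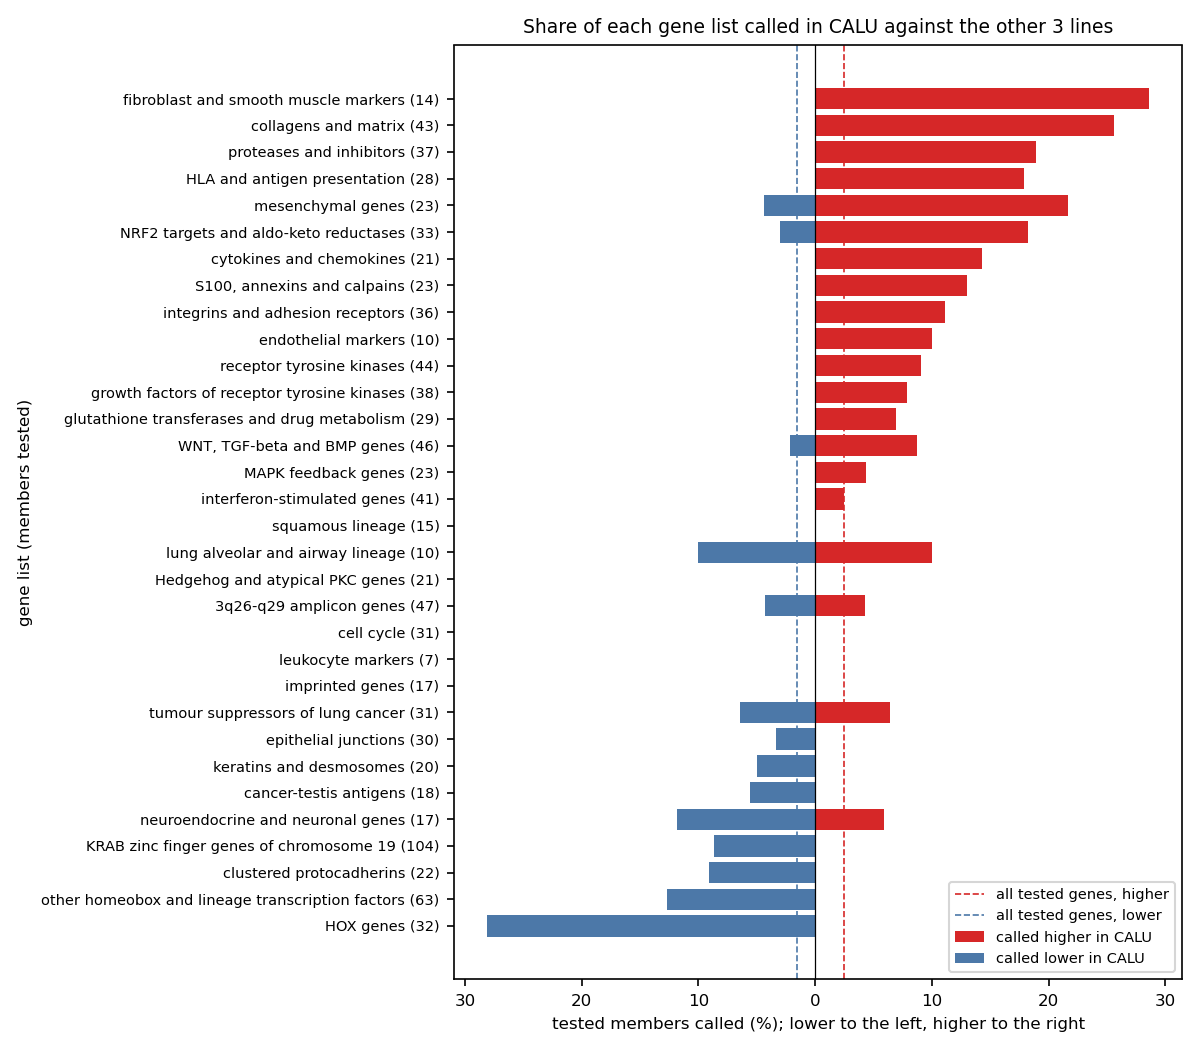
Percentage of the tested members of each of 32 gene lists called higher (red, to the right) or lower (blue, to the left) in CALU, with the shares of all tested genes as dashed lines at 2.43% and 1.59%. Fibroblast and matrix lists reach 28.6% and 25.6% to the right, and HOX genes 28.1% to the left.

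Some of the called genes were neighbours on a chromosome. Of 14882 tested genes, 14298 could be placed in the gene order of RefSeq, and 48 pairs of adjacent tested genes were called the same way. Of 357 placed genes called higher, 53 had such a neighbour, and of 227 called lower, 35 had one. Of all tested genes 2.43% were called higher and 1.59% lower. How many neighbours those shares alone would give was not tested. Downward, the runs of 3 were HOXA3, HOXA4 and HOXA5; DLX6, DLX5 and ACN9; and ZNF280B, ZNF280A and PRAME. ZNF280A had no CALU read against 0.793 to 15.5 CPM elsewhere (edgeR adjusted p = 0.0109, and 0.049 to 0.0679 without 1 CALU library), and ZNF280B none against 32.6 to 129.8 CPM (edgeR adjusted p = 0.000236), so all 3 genes of the PRAME run were without a read in CALU. Upward, 5 runs of 3 were found. Genes of these runs outside the lists were named after their values were seen.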

How the data were processed

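Total RNA came from a Qiagen RNeasy preparation and NuGEN chemistry was used for the libraries, per the labels' protocols. CASAVA 1.4, TopHat 1.4, HTSeq 0.5.3p3 and genome build hg19 are named per the submitters' processing notes; what each was run for, and whether counting used strand, is not given in the sources used here. The authors deposited a table of whole-number read counts, 1 row per gene and 1 column per library, as its header shows. Their other deposited table is a mode-normalized score, which equals the raw count times 1 factor per library, with a largest deviation of 0.761. No column belonged to another series. The table lists 22506 genes, of which 4044 had no read and 26 had symbols turned into dates.

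The analysis used R 4.3.3. Genes of low count were removed with edgeR 4.0.16 (filterByExpr, CALU against the rest), counts were scaled by TMM, and a robust quasi-likelihood model with terms for state and for CALU was fitted to 12 libraries with 8 residual degrees of freedom. Each two-sided p was adjusted by Benjamini and Hochberg's method across all genes tested, with a threshold of 0.05. A standard error is the absolute log2 fold change divided by the root of the F statistic. CPM values are TMM-scaled and not per length, so levels are not compared between genes. Standing apart was read from log2 CPM with a prior count of 2. Folds against 0 reads set the mean CPM of the group with reads against a floor of 3 reads per library, averaged over the group without. They are bounds for that mean and not for each library. The fitting script was tested on simulated counts. Nothing in the labels says that libraries came from separate cultures, so p-values measure the spread between these libraries.

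The members and the 33 gene lists were chosen with earlier results of these data known. Genes named are the 15 widest gaps in each direction at a mean of at least 20 CPM, up to 4 called members of smallest p from each list, up to 6 called genes from each interaction, and PRKCI, SOX2, TP63, CDKN2A, HHAT, GLI1, SHH, VIM, CDH1 and EPCAM, leaving out sex-linked markers. Not each is printed, and some genes are not reported here. Alternatives were other scalings, filters, thresholds, designs, DESeq2 1.42.0, limma 3.58.1 (voom, and the score with a pseudocount of 1) and libraries or lines left out; a random block for the line was added after seeing the data. Gene order and promoters come from RefSeq (GRCh38.p14). Since the counts were made on hg19, no counts per chromosome were made.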

Additional observations from a re-analysis of the deposited data

How the results depend on the processing

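The count of genes called in CALU was 598 and moved with how the 3 other lines and the 3 CALU libraries entered the fit. It was 3644 with a term for each line, 0 with reads summed per line, 2071 with DESeq2 (643 higher, 1428 lower), 1598 with limma voom, 393 with the line as a random block (229 of them shared, added after seeing the data) and 950 with limma on the authors' mode-normalized values. It was 1026 at an adjusted p of 0.10 and 166 at 0.01. Without CHAGO it was 957. Leaving out 1 CALU library gave 102 (without the TIC library) to 140 (without the parental library), and leaving out the libraries of 1 state gave 89 without parental cells, 48 without TICs and 61 without knockdown TICs. DESeq2 size factors, library totals, no filter, a filter of 5 CPM in 3 libraries, a log2 fold change of at least 1, and leaving out H1703 or H1299 gave 441 to 653. Without the state as a replicate block the count was 825, and 560 of the 598 genes were among them. The labels give no replicate numbers, so state was the pairing.

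Of 98 genes named that were called, 98 were still called with DESeq2 size factors, 93 with library totals, 62 with the random block, and 35 to 46 of the 95 or 96 still tested without 1 CALU library. None of the called ones changed direction under any of the 20 settings. The 346 genes that stood apart became 559 with no fold minimum, 743 when called against each other line, 574 without CHAGO, and 97 to 136 without 1 CALU library. DESeq2 called 3 and 45 genes in the 2 interaction tests where edgeR called 0.

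The genes that changed sign were among those not called in the main fit. The log2 fold change of CDH1 became 2.22 with line terms. That of EPCAM became 3.94 with line terms, 1.49 with voom, 1.42 with the random block, 1.85 with mode-normalized values and 8.99 without CHAGO, the line that carries it. In that last setting EPCAM was called higher (edgeR adjusted p = 0.0369). TP63 became −0.12 and CDKN2A −0.19 without the TIC libraries, and CDKN2A −0.076 without CHAGO. Without 1 CALU library TP63 ranged from −0.12 to 1.52 and CDKN2A from −0.18 to 0.44. GLI1 became 0.55 without H1703 and HHAT 1.12 without H1299. The causes of these shifts were not tested. Depth limits genes under about 0.1 CPM in H1703 and H1299, where 3 reads are up to 0.134 CPM.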

Other observations

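Some secreted factors had reads in CALU and hardly any elsewhere but too few libraries for a test, and are given as read counts. SERPINA3, a serine protease inhibitor, had 72, 3330 and 5 reads in CALU parental cells, TICs and knockdown TICs and 1 read in the 9 other libraries. VCAM1, an adhesion molecule for leukocytes, had 0, 1196 and 29 reads against 2. HGF, the ligand of the MET receptor, had 0, 440 and 23 reads against 7. CSF2, a granulocyte and macrophage growth factor, had 1, 36 and 1358 reads against 0. SERPINA3, VCAM1 and HGF were thus mostly in the TIC library and CSF2 in the knockdown TIC library. KRT5, a basal keratin of squamous tumors, had 2, 16 and 1 reads in CALU against 224 elsewhere. These genes were chosen after their values were seen, and each state of CALU is a single library.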
